A study of Mus musculus with 20 samples.

Results

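Integrins are the transmembrane receptors that hold a cell to its matrix, and the focal adhesion proteins are the layer beneath them that ties their tails to actin. The transcripts described here are 38 genes of that apparatus, chosen by symbol: 13 integrin alpha chains, 8 integrin beta chains and 17 focal adhesion proteins. All 38 were found among the 17243 genes listed in both deposited tables of normalised counts, drawn from 18657 genes listed at 6 months and 17808 at 6 weeks. They were measured by bulk RNA sequencing of hearts from mice without Sorbs2, a cytoskeletal adaptor of the SoHo family that binds actin-associated proteins at the Z-disc and at adhesions.

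Hearts of 20 mice fell into 5 groups. At 6 weeks of age there were 3 untreated Sorbs2 knockout (KO) mice and 3 untreated wild-type (WT) mice. At 6 months there were 4 knockout mice that had been given the vector AAV9-Tnnt2-Sorbs2 on postnatal day 2 (KO+AAV), 5 untreated KO mice and 5 untreated WT mice. Tnnt2 is the gene of cardiac troponin T, and its promoter restricts the vector's product largely to cardiomyocytes, so the other cell types of a KO+AAV heart are not a target of the vector. The labels give neither the knockout allele nor whether it is confined to a tissue, and they give no sex, strain or litter; hearts given an empty vector were not analysed here. The tissue is labelled left ventricle, whereas the extraction text speaks of ventricular myocardium. The 6-week values could be assigned to a genotype but not to a numbered sample, and those libraries are called by their column names (KO2, KO3, KO4, WT1, WT6 and WT16).

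Each integrin is a pair of an alpha and a beta chain, and the pair sets the ligand: beta1 with alpha5 binds fibronectin, beta1 with alpha7 or alpha6 binds laminin, beta1 with alpha11 binds fibrillar collagen, and beta1 with alpha9 binds tenascin-C, osteopontin and EMILIN1. Talin and kindlin bind the beta tail and switch the receptor on; vinculin, alpha-actinin and filamin link it to actin; focal adhesion kinase, paxillin and the complex of integrin-linked kinase, PINCH and parvin carry its signals. In the cardiomyocyte this machinery sits at the costamere, the band that fastens the Z-disc to the cell membrane, and in fibroblasts it sits at focal adhesions that pull on matrix.

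In all 20 libraries the targeted gene went with its label. Sorbs2 averaged 325 ± 45.3 in KO and 1717 ± 292 in WT hearts at 6 weeks (SD, n = 3 each, log2 difference -2.39). At 6 months it was between 493.7 and 1755 in KO and between 4562 and 5398 in WT hearts, with the 2 highest KO values in KO 1 and KO 5. KO+AAV 1 and 2 held 4696 and 5753, and KO+AAV 3 and 4 held 15690 and 17923. Summed values per library were 6705133 to 8240294 at 6 weeks and 11359135 to 13670340 at 6 months. Xist marked KO+AAV 1 and 3, none of the 5 KO libraries and WT 4 and 5 at 6 months, and at 6 weeks KO2 and WT1. Itgb1bp2 and Flna lie on the X chromosome. Within the groups at 6 months, 1 axis held 36.7% of the variance left over 13419 genes, with KO 1, KO 5, KO+AAV 1, KO+AAV 2, WT 4 and WT 5 on its negative side. Cardiomyocyte markers were present in every library. At 6 months the 10 markers summed to 1058385 to 1684610 in KO+AAV, 710202 to 972747 in KO and 1220552 to 1504316 in WT hearts. At 6 weeks they summed to 356293 to 440539 in KO and 413158 to 653174 in WT hearts.

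At 6 months, loss of Sorbs2 went with higher transcript levels of 4 integrin chains and 2 actin-linking adhesion proteins and with a lower level of 1 integrin-binding muscle protein. Itga9, Itga5, Itga11, Itgb5, Actn1 and Palld were higher in KO than in WT hearts, by 1.35-fold to 2.62-fold, and Itgb1bp2 was 1.59-fold lower. These 7 were 18.9% of the tested members, close to the 16.3% of all genes called. Only the calls of Itga9 and Itgb1bp2 held whichever single library was left out. In KO+AAV hearts, Itga9, Itga5, Actn1 and Palld were lower than in untreated KO hearts, as were Itgb1, Itgb3 and Zyx, and Itgb1bp2 was 1.82-fold higher. These were 21.6% of the tested members, beside 11.2% of all genes called. No member passed the test between KO+AAV and WT hearts, beside 1.33% of all genes. None passed between KO and WT hearts at 6 weeks, beside 0.589% of all genes. A gene was called when its adjusted p was under 0.05 in limma on log2(value + 1), with Benjamini-Hochberg adjustment over all genes tested, so fold changes here are on that scale and understate those of low genes. Itgb8 was too low to be tested, with values from 0 to 8.6 in all 20 libraries, and 37 of the 38 members passed the filter on low values in each comparison.

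The following promoter windows, 250 bases upstream of a transcription start (RefSeq, GRCm38.p6, the mm10 assembly), are shown because they belong to members whose level passed a test and hold a motif of a factor that answers to stretch or adhesion signals. Capitals mark the motif, which is GGAATG for TEAD factors, read on both strands, or TGANTCA for AP-1, its own reverse complement. Palld appears with 2 of its starts, both inside the gene's annotated span.

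Palld, chr8:61760090-61760339, minus strand, TEAD motif 87 bases before the start: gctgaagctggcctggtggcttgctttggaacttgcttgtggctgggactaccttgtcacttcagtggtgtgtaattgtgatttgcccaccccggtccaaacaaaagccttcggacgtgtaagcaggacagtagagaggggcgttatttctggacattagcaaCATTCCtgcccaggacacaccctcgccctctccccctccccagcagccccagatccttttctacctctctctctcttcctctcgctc

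Palld, chr8:61591140-61591389, minus strand, AP-1 motif 54 bases before the start: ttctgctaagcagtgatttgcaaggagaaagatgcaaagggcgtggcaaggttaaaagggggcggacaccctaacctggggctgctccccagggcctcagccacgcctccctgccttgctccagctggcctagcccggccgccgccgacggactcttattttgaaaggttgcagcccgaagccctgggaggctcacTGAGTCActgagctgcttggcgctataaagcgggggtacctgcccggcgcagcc

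Zyx, chr6:42349578-42349827, plus strand, AP-1 motif 121 bases before the start: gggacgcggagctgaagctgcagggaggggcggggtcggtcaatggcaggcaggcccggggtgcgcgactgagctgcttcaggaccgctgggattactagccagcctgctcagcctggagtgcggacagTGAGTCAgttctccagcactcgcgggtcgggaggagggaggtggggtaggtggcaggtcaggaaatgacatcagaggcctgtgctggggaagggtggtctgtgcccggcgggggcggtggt

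Itgb1, chr8:128685404-128685653, plus strand, TEAD motif 7 bases before the start: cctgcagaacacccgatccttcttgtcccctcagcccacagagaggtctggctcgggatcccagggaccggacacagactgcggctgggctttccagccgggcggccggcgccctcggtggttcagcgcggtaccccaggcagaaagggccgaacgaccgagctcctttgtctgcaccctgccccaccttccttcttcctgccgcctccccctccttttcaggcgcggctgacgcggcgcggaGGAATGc

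Windows were on hand for 27 of the 38 members (35 windows). The TEAD motif stood in 5 of these 35 windows, 1 each of Flna, Itga10, Itgb1, Palld and Vcl, and 12.6% of all 32851 windows of this length held it. The AP-1 motif stood in 2 of the 35, those of Palld and Zyx printed above, beside 6.75% of all windows. A CArG box, the serum response factor motif, stood in 3 of the 35, of Fermt2, Itgb6 and Vcl, beside 1.47% of all windows. A match says only that these letters are there; binding was not measured.

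Among the integrin chains that passed a test, Itga9 had the largest difference. Alpha9 is encoded on chromosome 9 (118606690 to 118901003, plus strand, mm10) and pairs with beta1 alone. Its normalised count was 495.2, 593, 1253 and 1071 in KO+AAV 1 to 4, then 1700, 2155, 2035, 2487 and 2264 in KO 1 to 5, and 1069, 1021, 946.4, 684.6 and 482.2 in WT 1 to 5. Every KO heart lay above every KO+AAV and every WT heart, and the KO+AAV and WT hearts overlapped. Itga9 was 2.62-fold higher in KO than in WT hearts (log2 1.39, SE 0.26, adjusted p = 0.00179) and 2.66-fold lower in KO+AAV than in KO hearts (log2 -1.41, SE 0.28, adjusted p = 0.00524). Both calls held under all 24 alternative settings tried, with adjusted p up to 0.00938 in the comparison with WT and 0.034 in that of KO+AAV with KO. Between KO+AAV and WT hearts the log2 difference was -0.03, with a 95% interval from -0.61 to 0.56.

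**Figure D1:**
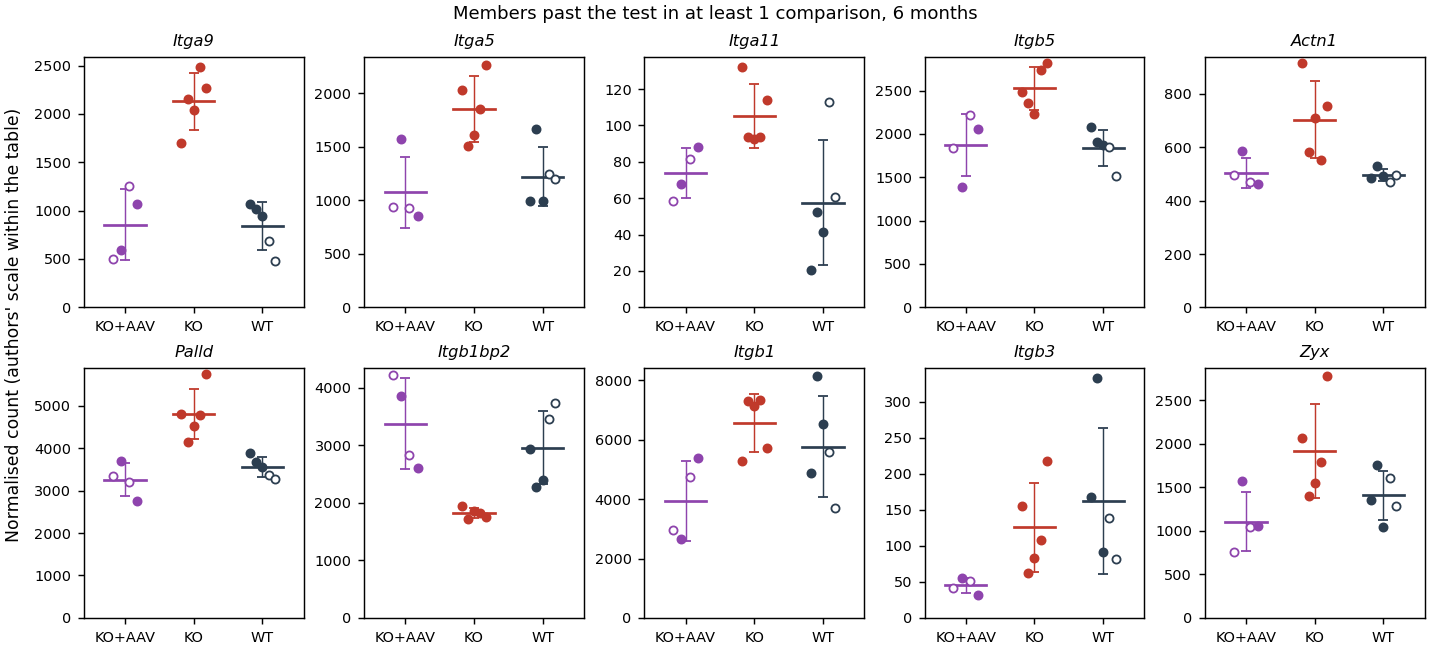
Normalised counts (linear axes from 0) of the 10 members past the test in at least 1 comparison at 6 months, with 1 point per heart, the group mean as a horizontal line and the SD as error bars; open points are libraries with Xist. For Itga9 the 5 KO hearts lie between 1700 and 2487, above all KO+AAV and WT hearts, and for Itgb1bp2 they lie between 1722 and 1948, below all of them.

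Itga5, the fibronectin receptor's alpha chain (chromosome 15, 103344286 to 103366763, minus strand), held 937.5, 1574, 924.1 and 857.8 in KO+AAV hearts, 2030, 1509, 1606, 1848 and 2262 in KO hearts, and 991.3, 1668, 994.6, 1244 and 1204 in WT hearts. KO hearts were the highest as a group, but KO+AAV 2 and WT 2 each lay inside their range. The change was 1.53-fold up in KO against WT (log2 0.61, SE 0.19, adjusted p = 0.0342) and 1.76-fold down in KO+AAV against KO (log2 -0.82, SE 0.20, adjusted p = 0.0161). The first call was lost when any of KO 1, KO 4, KO 5, WT 1, WT 3, WT 4 or WT 5 was left out, and the second without KO+AAV 1; adjusted p reached 0.183 and 0.225 over the alternatives.

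Itga11, a collagen receptor chain of fibroblasts (chromosome 9, 62677826 to 62783982, plus strand), was a low transcript. Its values were 58.3, 67.6, 81.5 and 88.4 in KO+AAV hearts, 132, 93.6, 92.3, 93.6 and 114.1 in KO hearts, and 20.5, 52.2, 41.5, 112.8 and 60.9 in WT hearts. Of the WT hearts, 4 lay below every KO heart, while WT 4 lay among them. The 2.06-fold difference between KO and WT (log2 1.04, SE 0.32, adjusted p = 0.0363) lost its call when any 1 of the KO hearts or WT 1, WT 2 or WT 3 was left out, with adjusted p up to 0.162. KO+AAV hearts did not overlap with KO hearts, yet their difference did not pass the test (log2 -0.51, adjusted p = 0.327).

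The other 10 alpha chains did not pass in any comparison at 6 months. Itgav, the chain shared by the vitronectin receptors, came nearest: it held 195.5, 194, 314.5 and 333.3 in KO+AAV hearts, 362.5 to 494.1 in KO hearts and 208.9 to 381.5 in WT hearts. The KO+AAV and KO hearts did not overlap, and the log2 difference was -0.67 (adjusted p = 0.0543). Itga7, the laminin receptor chain of muscle, was 2286 to 2428 in KO+AAV, 2202 to 3681 in KO and 2220 to 2795 in WT hearts (log2 0.22 for KO against WT, adjusted p = 0.291). The laminin receptor chain Itga6 had a log2 difference of -0.57 between KO+AAV and KO (adjusted p = 0.115), and the leukocyte chain Itgam one of 0.69 between KO and WT (adjusted p = 0.189). Adjusted p for KO against WT was 0.899 for the collagen receptor chain Itga1, 0.217 for the laminin receptor chain Itga3, 0.608 for Itga4, which binds Vcam1, 0.23 for Itga8, which binds nephronectin, and 0.424 for the collagen receptor chain Itga10. Exons of Itgam and Itga10 share 68.7% and 33.5% of their length with another gene model on the same strand, so their counts are uncertain.

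Among the beta chains, Itgb5 rose in KO against WT hearts, and Itgb1 and Itgb3 fell in KO+AAV against KO hearts. Beta5 pairs with alpha-v and binds vitronectin (Itgb5, chromosome 16, 33829665 to 33949338, plus strand). It held 1834, 1389, 2214 and 2056 in KO+AAV hearts, 2488, 2351, 2226, 2738 and 2814 in KO hearts, and 2077, 1904, 1870, 1848 and 1510 in WT hearts. All KO hearts lay above all others, the lowest of them, KO 3, only just above KO+AAV 3. The difference between KO and WT was 1.37-fold (log2 0.46, SE 0.14, adjusted p = 0.0312), and it lost its call without KO 4, KO 5, WT 3, WT 4 or WT 5, with adjusted p up to 0.154. For KO+AAV against KO the log2 difference was -0.45 (adjusted p = 0.0576).

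Itgb1, the common partner of most alpha chains (chromosome 8, 128685654 to 128733200, plus strand), was the most abundant beta transcript. It held 2967, 2648, 4756 and 5381 in KO+AAV hearts, 5272, 7310, 7129, 7321 and 5719 in KO hearts, and 4876, 8144, 6542, 5570 and 3683 in WT hearts. KO+AAV 1 to 3 lay below all KO hearts and KO+AAV 4 among them, while WT hearts spanned the whole KO range. It was 1.72-fold lower in KO+AAV than in KO hearts (log2 -0.79, SE 0.24, adjusted p = 0.0475), a call that was lost under 13 of 24 alternatives, among them leaving out KO 2, KO 3, KO 4, KO 5, KO+AAV 1, KO+AAV 2, WT 1, WT 3 or WT 4 (adjusted p up to 0.198).

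Itgb3 (chromosome 11, 104608000 to 104670476, plus strand) pairs with alpha-v, and in platelets with Itga2b to form the fibrinogen receptor. It held 41.4, 54.9, 51.8 and 32.2 in KO+AAV hearts, 155, 62.4, 83.7, 108.8 and 218.3 in KO hearts, and 167.9, 332.2, 91.4, 138.4 and 81.6 in WT hearts. KO+AAV hearts lay below every KO and every WT heart. The difference between KO+AAV and KO was 2.55-fold (log2 -1.35, SE 0.40, adjusted p = 0.0389) and lost its call under 15 of 24 alternatives, among them leaving out any KO+AAV heart, KO 1, KO 4, KO 5, WT 1 or WT 4. Against WT it was larger but missed the threshold (log2 -1.66, adjusted p = 0.052), and passed it without WT 5, KO 2 or KO 5.

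Itga2b is the platelet partner of Itgb3. It was 47.9, 67.6, 13.4 and 14.7 in KO+AAV hearts, 231.7, 40.9, 48.1, 200.3 and 357.2 in KO hearts, and 243.8, 584.6, 89.6, 196.9 and 87.7 in WT hearts. Its log2 difference of -2.12 between KO+AAV and KO did not pass (adjusted p = 0.065). The summed value of 6 platelet markers (Pf4, Ppbp, Gp9, Gp1ba, Gp1bb and Gp6) was 153.6 to 350.1 in KO+AAV, 240.4 to 927.4 in KO and 228.5 to 873.7 in WT hearts. Of the 5 markers tested, 1 (Gp9) was lower in KO+AAV than in KO in limma (log2 -2.54, adjusted p = 0.0369), beside 11.2% of all genes called. All 5 lay below 0 in that comparison, with a median log2 difference of -1.96. An unadjusted p under 0.05 in limma was found for 3 of them, beside 29.6% of all genes. The 4 hearts with most Itga2b at 6 months, KO 1, KO 5, WT 1 and WT 2, were also the 4 with most Itgb3 and the 4 with the highest platelet sums. At 6 weeks KO2 stood apart, with 2798 for Itga2b, 948.1 for Itgb3 and a platelet sum of 3382. The part of blood left in the tissue in these differences was not tested.

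**Figure D2:**
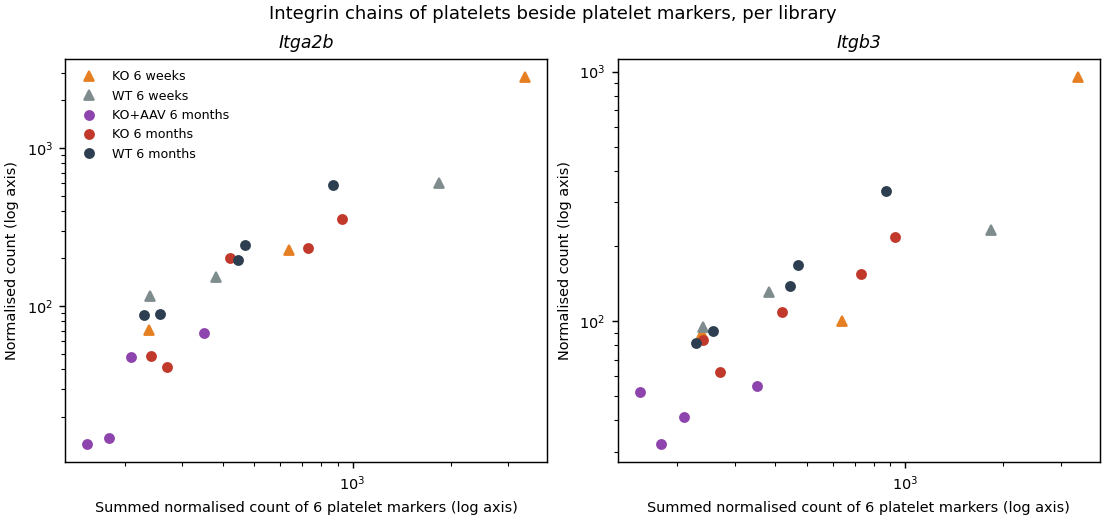
Itga2b (left) and Itgb3 (right), in normalised counts, against the summed normalised count of 6 platelet markers, both axes logarithmic, with 1 point per library of all 5 groups; the tables of the 2 ages were normalised separately. KO2 at 6 weeks lies highest with 2798 for Itga2b and 948.1 for Itgb3, and the 4 KO+AAV hearts lie lowest for Itgb3, at 32.2 to 54.9.

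The remaining beta chains did not pass at 6 months. The leukocyte chain Itgb2 held 79.0 to 101.2 in KO+AAV, 107.8 to 203.7 in KO and 70.8 to 173.1 in WT hearts, with no overlap between KO+AAV and KO (log2 -0.58, adjusted p = 0.131). Itgb6, which with alpha-v activates latent TGF-beta in epithelia, had a log2 difference of -0.51 between KO and WT (adjusted p = 0.267). Adjusted p for KO against WT was 0.379 for Itgb4, the hemidesmosome chain that pairs with alpha6, and 0.615 for Itgb7, the lymphocyte chain that pairs with alpha4. Itgb8, another partner of alpha-v, had no test.

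Of the 17 focal adhesion proteins, Itgb1bp2 showed the clearest difference. Its direction was opposite to that of Itga9, Itga5, Itga11 and Itgb5, the integrin chains called between KO and WT. It encodes melusin, a striated muscle protein that binds the tail of beta1 and is known from mice to protect the pressure-loaded heart from dilation (chromosome X, 101449088 to 101453541, plus strand). Its normalised count was 4222, 3861, 2826 and 2599 in KO+AAV hearts, 1948, 1722, 1851, 1829 and 1755 in KO hearts, and 2935, 2274, 2392, 3458 and 3732 in WT hearts. The KO hearts lay close together and below every other heart. Itgb1bp2 was 1.59-fold lower in KO than in WT (log2 -0.67, SE 0.16, adjusted p = 0.0099) and 1.82-fold higher in KO+AAV than in KO (log2 0.86, SE 0.17, adjusted p = 0.00607). The vector call held under all 24 alternatives. The knockout call was lost when only libraries with Y-linked expression were compared (log2 -0.47, adjusted p = 0.0727), and the WT hearts with Xist, WT 4 and WT 5, had the 2 highest WT values. Of the 10 cardiomyocyte markers, 3 (Myh6, Tnni3 and Ckm) fell in KO against WT and 7 did not pass, beside 16.3% of all genes called. All 10 lay below 0 in that comparison, with a median log2 difference of -0.572. An unadjusted p under 0.05 in limma was found for 5 of them, beside 28.7% of all genes. Their sum was lower in every KO heart than in any WT or KO+AAV heart. In KO+AAV against KO 3 (Tnnt2, Tnni3 and Ckm) rose and 7 did not pass, beside 11.2% of all genes called, with 3 of the 10 below 0. The part of cardiomyocyte RNA in the Itgb1bp2 difference was not tested. In such bulk tissue fewer cells of a type and less RNA per cell cannot be told apart.

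Palld and Actn1 were the actin-linking proteins higher in KO hearts. Palladin (Palld, chromosome 8, 61511433 to 61902690, minus strand) is a scaffold of actin bundles that binds alpha-actinin. It held 3337, 3698, 3209 and 2757 in KO+AAV hearts, 4812, 4136, 4528, 4791 and 5745 in KO hearts, and 3874, 3675, 3557, 3359 and 3281 in WT hearts. Every KO heart lay above every other. Its level was 1.35-fold higher in KO than in WT (log2 0.43, SE 0.12, adjusted p = 0.0199), which did not hold without KO 5, and 1.48-fold lower in KO+AAV than in KO (log2 -0.56, SE 0.12, adjusted p = 0.0104), which held whichever single library was left out. The 2 starts whose windows are printed above were not separated, since counts are per gene.

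Alpha-actinin 1 (Actn1, chromosome 12, 80167547 to 80260371, minus strand) is the crosslinker of actin in non-muscle cells, distinct from the Z-disc's alpha-actinin 2. It held 496, 585.1, 471.4 and 463.8 in KO+AAV hearts, 914.9, 583, 711.6, 554.2 and 753.7 in KO hearts, and 486.8, 531.2, 493.1, 470.6 and 497.4 in WT hearts. KO hearts lay above all WT hearts, and KO+AAV 2 lay among the lower KO hearts. It was higher in KO than in WT (log2 0.48, SE 0.13, adjusted p = 0.0218) and 1.38-fold lower in KO+AAV than in KO (log2 -0.46, SE 0.14, adjusted p = 0.0468). The first lost its call without KO 1, KO 5 or WT 4, and the second under 16 of 24 alternatives, among them leaving out KO 1, KO 3, KO 5, KO+AAV 1, KO+AAV 3, KO+AAV 4, WT 1, WT 3 or WT 4.

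Zyxin (Zyx, chromosome 6, 42349630 to 42360213, plus strand) moves to actin fibres under tension. It held 761.3, 1572, 1042 and 1051 in KO+AAV hearts, 2071, 1401, 1546, 1794 and 2774 in KO hearts, and 1354, 1756, 1039, 1612 and 1283 in WT hearts. KO+AAV 2 stood with the KO hearts, and the other KO+AAV hearts below them. It was 1.74-fold lower in KO+AAV than in KO (log2 -0.80, SE 0.22, adjusted p = 0.0338), a call lost without KO 4, KO 5, KO+AAV 1, KO+AAV 3 or KO+AAV 4, while KO against WT did not pass (log2 0.42, adjusted p = 0.203).

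The other 13 focal adhesion proteins passed in no comparison. Talin-1 (Tln1) came nearest, at 2298 to 2688 in KO+AAV, 2945 to 3910 in KO and 2005 to 3380 in WT hearts, with no overlap between KO+AAV and KO (log2 -0.44, adjusted p = 0.0723). Kindlin-2 (Fermt2) was 1602 to 2169 in KO+AAV and 2335 to 2697 in KO hearts, again without overlap (log2 -0.36, adjusted p = 0.103). Integrin-linked kinase (Ilk) had a log2 difference of 0.05 between KO and WT, with a 95% interval from -0.16 to 0.26. Its exons overlap with genes on the opposite strand over 89.7% of their length, as do those of Vcl over 25.5%, Actn1 over 8.15% and Zyx over 4.38%, and their counts are uncertain to that extent because the strand setting of the counting is not known. The KO against WT differences of its partners, alpha-parvin (Parva), PINCH1 (Lims1) and PINCH2 (Lims2), were 0.12, -0.07 and -0.40 (adjusted p = 0.623, 0.85 and 0.42). Focal adhesion kinase (Ptk2), paxillin (Pxn), the docking protein p130Cas (Bcar1), tensin-1 (Tns1), filamin A (Flna), vinculin (Vcl) and talin-2 (Tln2) all had adjusted p of 0.685 or more for KO against WT. The log2 differences of these 7 proteins lay between -0.10 and 0.15.

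KO 1 and KO 5, the knockout hearts with more Sorbs2 transcript, stood apart from the other KO hearts in several of these proteins. Vinculin was 1229 and 1293 in KO 1 and KO 5 and 1890 to 2015 in KO 2 to 4. PINCH1 was 1239 and 1361 against 2026 to 2163. Paxillin ran the other way, at 1291 and 1210 against 712.2 to 847.2, and so did PINCH2, at 1429 and 1081 against 509.4 to 758.3. KO 1 and KO 5 also lay on the negative side of the axis described above. So did KO+AAV 1 and 2, the KO+AAV hearts with less Sorbs2 transcript, and they showed the same split against KO+AAV 3 and 4. Vinculin was 956.9 and 1196.5 against 1302.6 and 1378.2, and PINCH1 was lower too. PINCH2 was 1572.1 and 2130.5 against 834.6 and 1063.5, and paxillin was higher too. WT 4 and WT 5 lay on that side too. They held 1713 and 1468 for PINCH1 against 1776 to 2303 in WT 1 to 3, and 1273 and 1341 for PINCH2 against 703.1 to 1247. Their vinculin and paxillin overlapped with WT 1 to 3. Sorbs2 was 4562 and 4753 in WT 4 and WT 5. The negative side thus went with more Sorbs2 transcript among KO hearts and with less among KO+AAV hearts. The part of Sorbs2 level in this split was not tested. Without KO 1 and KO 5, the KO against WT calls fell to Itga9 and Itgb1bp2, and those of KO+AAV against KO were again 8, with Itga7, Lims1, Lims2 and Vcl in place of Actn1, Itga5, Itgb3 and Zyx.

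**Figure D3:**
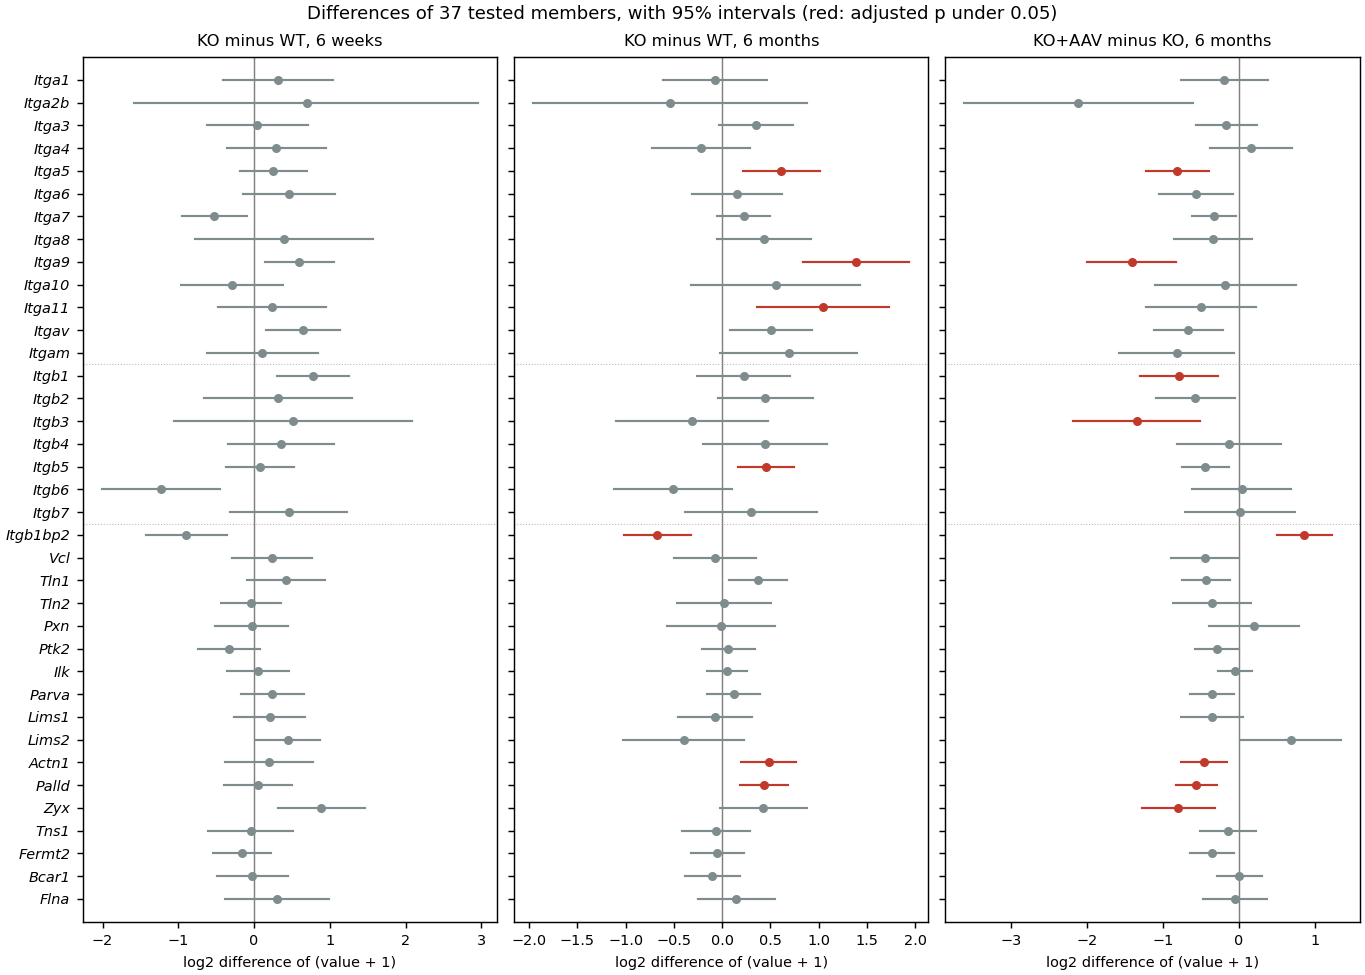
Log2 differences of (value + 1) for the 37 tested members in KO minus WT at 6 weeks (left), KO minus WT at 6 months (middle) and KO+AAV minus KO at 6 months (right), with 95% intervals from limma; red points have an adjusted p under 0.05, and dotted lines part alpha chains, beta chains and focal adhesion proteins. The left panel has no red point, the middle panel has 7, led by Itga9 at 1.39, and the right panel has 8; the panels have their own axis ranges.

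Counted together, 7 of 37 tested members (18.9%) passed for KO against WT at 6 months, beside 16.3% of all 13419 genes tested, so the share of the members was close to that of all genes. Of the 7, 6 were higher and 1 lower; by class, 3 of 13 alpha chains, 1 of 7 beta chains and 2 of 17 focal adhesion proteins were higher. The median log2 difference was 0.15 over the members and 0.0023 over all genes. KO and WT hearts did not overlap for 5 members, beside 13.8% of all genes. With sex-linked expression as a covariate Itga9, Itga11 and Itgb1bp2 passed, and among libraries with Y-linked expression alone Itga9 and Itga11. The count of 7 was 4 without KO 1, KO 4, WT 3 or WT 4 and 2 without KO 5. With libraries scaled to equal totals, the median of all genes moved to 0.159, with 1775 genes up and 653 down in place of 1091 and 1098. Then 10 members passed, 9 of them higher, and Itga7, Itgav and Tln1 were the additions.

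For KO+AAV against KO, 8 of 37 tested members passed (21.6%), beside 11.2% of all genes; 1 was higher and 7 were lower. The median log2 difference was -0.36 over the members and about 0 over all genes, and 30 of 37 lay below 0. These 2 comparisons share the KO hearts, so their results are not independent. KO+AAV and KO hearts did not overlap for 10 members, beside 14.1% of all genes. With sex-linked expression as a covariate Itga9, Palld and Itgb1bp2 passed, and among the libraries with Y-linked expression Itga9 and Itgb1bp2. The count of 8 was 5 without KO 4, WT 1 or WT 4, 4 without KO 5 and 3 without KO+AAV 1. Equal totals gave 521 genes up and 1017 down in place of 745 and 764, and 11 members.

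Between KO+AAV and WT hearts none of the 37 members passed in limma, beside 1.33% of all genes. An unadjusted p under 0.05 was found for 6 of the 37, a share below the 18.3% of all genes. The 6 were Itga2b (log2 -2.66, adjusted p = 0.0742), Itgb3, Fermt2 (log2 -0.41, adjusted p = 0.156), Vcl (log2 -0.52, adjusted p = 0.225), Itgb1 (log2 -0.56, adjusted p = 0.24) and Lims1 (log2 -0.43, adjusted p = 0.258), all lower in KO+AAV hearts. Without WT 5, Itga2b and Itgb3 passed. That a member missed the threshold does not show that it was back at its WT level: for Itgb1bp2 the 95% interval of the log2 difference ran from -0.18 to 0.56, for Palld from -0.40 to 0.13 and for Actn1 from -0.28 to 0.32.

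At 6 weeks none of 37 members passed in limma, beside 0.589% of 13242 genes. An unadjusted p under 0.05 was found for 8 of the 37, beside 15.4% of all genes, and the 8 are given as a description. With libraries scaled to equal totals, 27 genes rose and 9 fell, in place of 50 and 28, and still no member passed. Itgb1bp2, the muscle chaperone, was again low in the knockout, at 1098, 1312 and 1086 in KO2, KO3 and KO4 and 3123, 2038 and 1591 in WT1, WT6 and WT16 (log2 -0.90, adjusted p = 0.122). Itga9 held 384, 490.9 and 594.9 in KO and 306.3, 357.6 and 294.3 in WT hearts (log2 0.60, adjusted p = 0.215). Neither gene's groups overlapped, as at 6 months.

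Of the other 6, 4 lay higher in KO hearts. Itgb1 was 1808, 2319 and 2133 in KO and 935.9, 1229 and 1525 in WT hearts (log2 0.78, adjusted p = 0.128). Zyx was 2847, 1450 and 1896 in KO and 892.8, 1006 and 1370 in WT hearts (log2 0.89, adjusted p = 0.149). Itgav was 134.4, 176.4 and 142.7 in KO and 100.6, 81.5 and 106.2 in WT hearts (log2 0.65, adjusted p = 0.212). In these 3 genes and in Lims2 (log2 0.45, adjusted p = 0.287) every KO heart lay above every WT heart. The remaining 2 were lower. Itga7, the muscle laminin receptor chain, was 1211, 830.8 and 998.4 in KO and 1495, 1549 and 1285 in WT hearts (log2 -0.52, adjusted p = 0.241). Itgb6 was 22.2, 43.8 and 20.2 in KO and 79.7, 64.7 and 52.6 in WT hearts (log2 -1.23, adjusted p = 0.146).

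**Figure D4:**
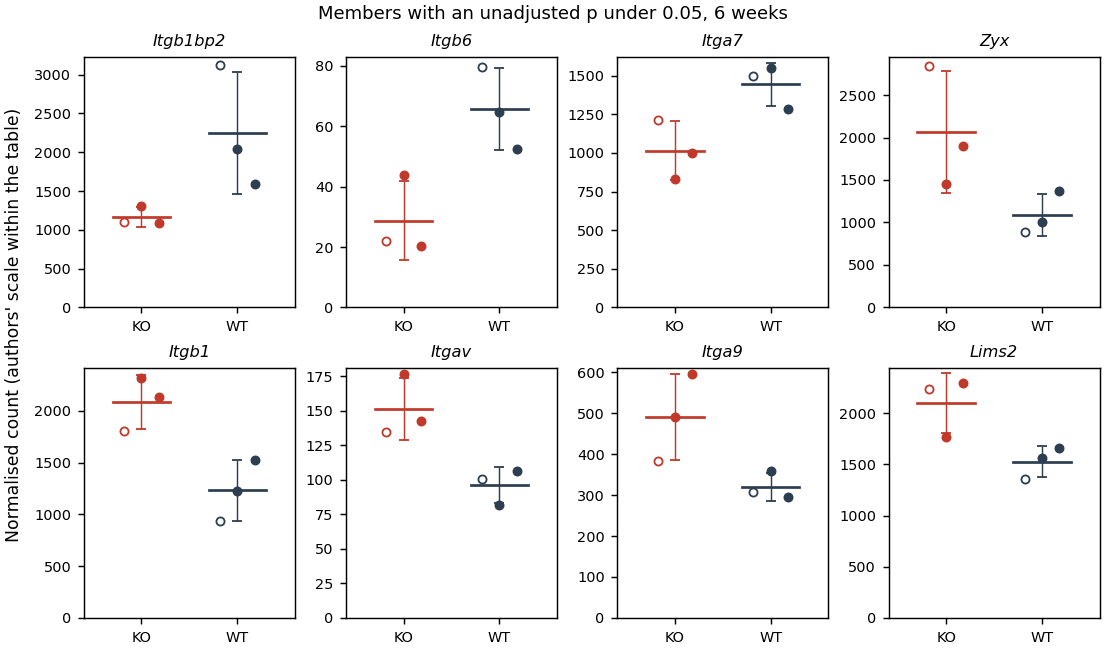
Normalised counts (linear axes from 0) at 6 weeks of the 8 members with an unadjusted p under 0.05, with 1 point per heart, the group mean as a horizontal line and the SD as error bars; open points are the libraries with Xist, KO2 and WT1. The 3 KO hearts do not overlap with the 3 WT hearts in any of the 8 panels, and no member passed after adjustment over 13242 genes.

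KO and WT hearts at 6 weeks did not overlap for 11 members, beside 21.2% of all genes. Among 13 lists of cell type markers, 1 marker each of Schwann cells (Mbp) and skeletal muscle (Acta1, which heart muscle also makes) passed at 6 weeks, both higher in KO. Of all genes, 0.589% were called at this age. The 10 endothelial markers summed to 17412 to 22927 in KO and 11873 to 14844 in WT hearts, and the 10 fibroblast markers to 40457 to 46723 in KO and 31021 to 37701 in WT hearts; 5 and 4 of these had an unadjusted p under 0.05. Sums in KO hearts also lay above those in WT hearts, without overlap, for the 7 Schwann cell markers (768 to 1564 in KO, 541 to 621 in WT), the 6 skeletal muscle markers (5953 to 11464 in KO, 1445 to 2971 in WT) and the 7 T and NK cell markers (29.7 to 38.7 in KO, 17.2 to 28.4 in WT). The sums overlapped for cardiomyocytes, mural cells, macrophages and monocytes, neutrophils, platelets, B cells and mesothelium. Of the 10 cardiomyocyte markers 8 lay below 0 (median log2 difference -0.362), as did 8 of the 10 macrophage and monocyte markers (median -0.186). All 5 platelet and all 4 mesothelium markers tested lay above 0 (medians 0.456 and 1.59). The 4 markers of lung or airway epithelium summed to 1999.9 in KO3, 791 in KO4 and 18.03 in KO2, against 31.9 to 57.6 in WT hearts. Their part in the 6-week values of the integrins was not tested.

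The knockout effect of no member differed between the ages by the test of the difference itself, beside 4.08% of 12709 genes. An unadjusted p under 0.05 was found for 3 of the 37, a share below the 17.9% of all genes. For Itga7 the log2 difference between KO and WT was 0.22 at 6 months and -0.52 at 6 weeks, a difference of 0.74 (adjusted p = 0.0837), which passed without KO 1. For Itga9 the effects were 1.39 and 0.60 (difference 0.79, adjusted p = 0.196). Lims2 had -0.40 at 6 months and 0.45 at 6 weeks (difference -0.85, adjusted p = 0.185) and passed without KO 1 and KO 5 together.

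Per kilobase of the main annotated transcript, the heart's alpha chains at 6 months were led by Itga7 in every group. Its level was 580.1 ± 16.9 in KO+AAV, 738.9 ± 134 in KO and 628.1 ± 64.4 in WT hearts (SD, n = 4, 5 and 5), or 43.5%, 36.0% and 41.0% of all alpha chain transcripts by this scale. Itga5, Itga6 and Itga9 came next. Itga5 stood at 422.4 ± 70.1 and Itga6 at 324.5 ± 42.5 in KO hearts, against 278.5 ± 63.0 for Itga5 and 297.2 ± 78.9 for Itga6 in WT hearts, where the order of these neighbours lay within their spread. Itga9 made up 8.88% of alpha chain transcripts in KO+AAV hearts, 14.8% in KO hearts and 7.68% in WT hearts.

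Itgb1 and Itgb5 made up most of the beta chain transcripts: Itgb1 held 59.7%, 65.3% and 67.4% and Itgb5 34.1%, 29.6% and 26.1% in KO+AAV, KO and WT hearts. Among the focal adhesion proteins, Itgb1bp2 ranked first per kilobase, at 2570 ± 598.7 in KO+AAV, 1386 ± 67.45 in KO and 2251 ± 487 in WT hearts. Tensin-1 followed at 1236 ± 207.5 in KO+AAV, 1358 ± 149.8 in KO and 1444 ± 299.9 in WT hearts. With palladin at 1347 ± 166.4, the first 3 did not differ beyond their spread in KO hearts. On the same scale, the ratio of talin-2, the form abundant in striated muscle, to talin-1 was 0.237 to 0.34 in KO+AAV, 0.219 to 0.355 in KO and 0.312 to 0.42 in WT hearts. PINCH2 over PINCH1 was 0.437 to 1.61 in KO+AAV, 0.208 to 0.965 in KO and 0.255 to 0.764 in WT hearts. At 6 weeks the same ratio, taken within each library, was 1.91 to 3.22 in KO and 1.60 to 2.88 in WT hearts. The ages came in separate tables, and the ratio was not tested between them.

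**Figure D5:**
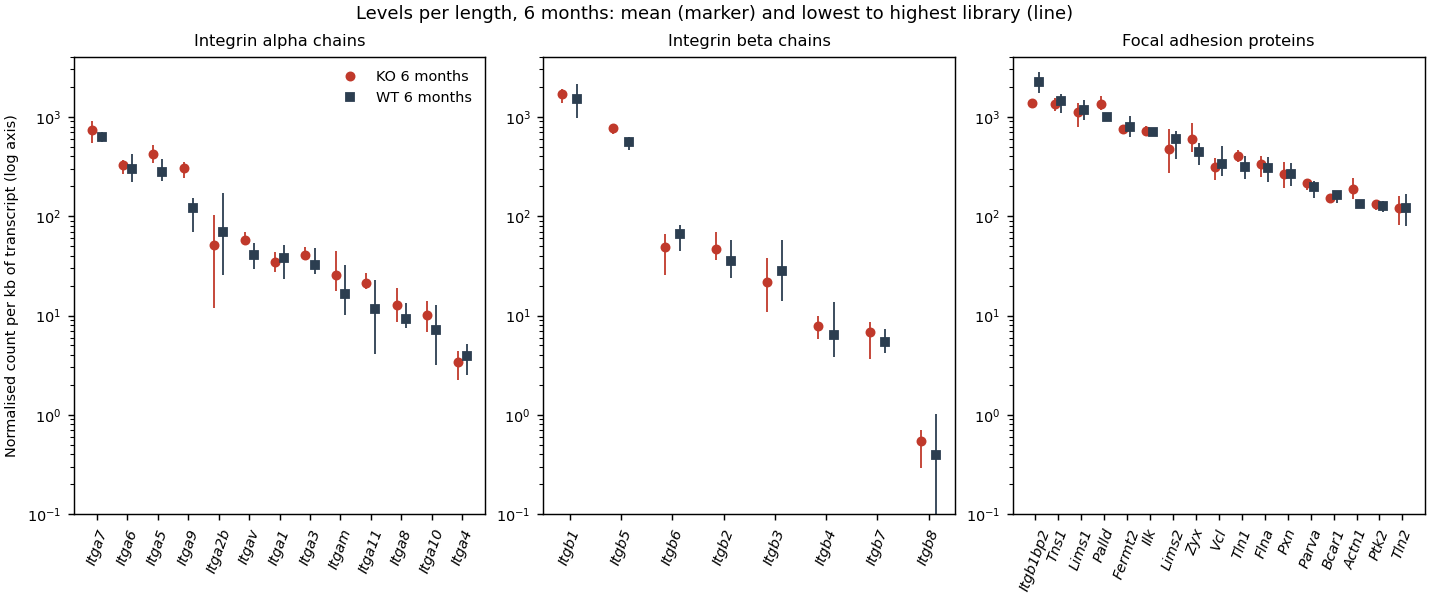
Normalised counts per kilobase of transcript (log axis) of the alpha chains, beta chains and focal adhesion proteins at 6 months, ordered by their WT level, as the mean (circle for KO, square for WT) with a line from the lowest to the highest of 5 hearts; a line that meets the lower edge has a heart at 0. Itga7, Itgb1 and Itgb1bp2 lead their classes in WT hearts, and Itga9 stands at 303.2 in KO and 119.8 in WT hearts.

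Beyond the 38 members, 46 further genes of focal adhesions were followed, of which 45 were tested. For KO against WT at 6 months 8 rose, 2 fell and 35 did not pass, so that 22.2% were called, beside 16.3% of all genes. The actin elongation factor Enah (Mena) was 7168 ± 1309.5 in KO and 2486 ± 544 in WT hearts (SD, n = 5 each, log2 1.54, adjusted p = 5.35e-05). The kinase Ptk2b, a relative of focal adhesion kinase, rose by 1.61 on the log2 scale (adjusted p = 0.000236), the zyxin relative Lpp by 0.58 (adjusted p = 0.000782) and the intermediate filament protein Synm by 0.86 (adjusted p = 0.00117). The 2 that fell, named after their values were seen, were Sh3kbp1 (log2 -0.93) and the zyxin relative Trip6 (log2 -0.65). For KO+AAV against KO 7 fell and none rose in limma, so that 15.6% were called, beside 11.2% of all genes; 17 had an unadjusted p under 0.05, beside 29.6% of all genes. In this comparison Enah was 2391 ± 534 in KO+AAV and 7168 ± 1309.5 in KO hearts (log2 -1.60, adjusted p = 0.000383), and Tns3, Ankrd28 and Synm fell by 0.78, 1.10 and 0.82 on the log2 scale. No gene of this list passed between KO+AAV and WT, where 10 had an unadjusted p under 0.05, beside 18.3% of all genes. At 6 weeks the LIM protein Tes was the gene that passed, at 134 ± 16.4 in KO and 55.8 ± 7.07 in WT hearts (n = 3 each, log2 1.25, adjusted p = 0.0415). The knockout effects on Enah and Tes differed between the ages, by 1.42 and -1.61 on the log2 scale at 6 months minus 6 weeks (adjusted p = 0.00735 and 0.00299).

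Of 37 listed ligands of integrins, 32 were tested at 6 months. For KO against WT 11 rose, 2 fell and 19 did not pass, so that 40.6% were called, beside 16.3% of all genes. Emilin1, a ligand of alpha9 beta1, was 522.5 ± 68.0 in KO+AAV, 768 ± 97.7 in KO and 281.4 ± 71.0 in WT hearts. It was higher in KO than in WT (log2 1.47, adjusted p = 2.74e-05) and also higher in KO+AAV than in WT (log2 0.92, adjusted p = 0.0145). The collagen chain Col6a3 rose by 1.08 on the log2 scale (adjusted p = 0.000266), while the laminin chain Lamb3 fell by 1.88 (adjusted p = 5.35e-05); vitronectin (Vtn), named after its value was seen, was the other that fell (log2 -0.49). For KO+AAV against KO 9 ligands fell, 2 rose and 21 did not pass, so that 34.4% were called, beside 11.2% of all genes. Fibronectin (Fn1), the ligand of alpha5 beta1, was 650.3 ± 90.5 in KO+AAV, 1408 ± 330.5 in KO and 666.5 ± 94.5 in WT hearts (log2 -1.09 for KO+AAV against KO, adjusted p = 0.00194). The collagen chain Col4a1 fell by 0.86 on the log2 scale, and Lamb3 rose by 1.38; Vtn was the other that rose. Between KO+AAV and WT, Thbs1, a matrix protein that platelets also store, was the other ligand that passed beside Emilin1 (log2 -2.77, adjusted p = 0.0431). The knockout effects on Lamb3 and Emilin1 differed between the ages, by -1.63 and 0.94 on the log2 scale (adjusted p = 0.00662 and 0.0483). No ligand of 33 tested passed at 6 weeks in limma, where 10 had an unadjusted p under 0.05, beside 15.4% of all genes.

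Markers of several cell types differed between these groups at 6 months. For scale, 16.3% of all genes were called in KO against WT and 11.2% in KO+AAV against KO. Of the 10 fibroblast markers, 7 rose in KO against WT and 4 fell in KO+AAV against KO, and their summed value was 31557 to 42845 in KO+AAV, 42246 to 58309 in KO and 29775 to 44367 in WT hearts. WT 4, with the highest Itga11 of the WT hearts, also had the highest fibroblast sum of the WT hearts. Of the 10 macrophage and monocyte markers, 1 rose in KO against WT, and their sums overlapped, at 2803 to 4524 in KO+AAV, 3558 to 5757 in KO and 3028 to 5535 in WT hearts. In KO against WT 8 of these 10 lay above 0, with a median log2 difference of 0.348. In KO+AAV against KO none passed, but all 10 lay below 0, with a median of -0.459. There 2 had an unadjusted p under 0.05 in limma, beside 29.6% of all genes. None of the 10 endothelial markers passed between KO and WT in limma, where 2 had an unadjusted p under 0.05, beside 28.7% of all genes. All 10 lay below 0 there, with a median log2 difference of -0.216. In KO+AAV against KO 1 (Tie1) rose, with 9 of 10 above 0.

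The 9 mural markers summed to 10579 to 13037 in KO+AAV, 7825 to 10661 in KO and 11495 to 18553 in WT hearts, with KO below WT throughout. In KO against WT, 1 (Cspg4) rose and 2 (Abcc9 and Acta2) fell, beside 16.3% of all genes called. In KO+AAV against KO, 2 (Acta2 and Myh11) rose and 1 (Cspg4) fell, beside 11.2% of all genes called. The 6 skeletal muscle markers summed to 5399 to 30171 in KO+AAV, 38766 to 85624 in KO and 3967 to 21551 in WT hearts, with KO above both other groups. Only 3 of the 6 reached the filter, and Myh2 and Myh4 were at 0 in every KO heart. In KO against WT 1 (Acta1, which heart muscle also makes) rose and 1 (Tnni2) fell. The sums therefore do not show skeletal muscle cells. Of the 6 Schwann cell markers tested, 2 (Mbp and Gfra3) fell in KO against WT, beside 16.3% of all genes called. The part of these cell types in the differences of the integrins was not tested.

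Of the 6 integrin subunits outside the members (Itga2, Itgad, Itgae, Itgal, Itgax and Itgb2l), 2 reached the filter and neither passed in any of the 5 comparisons; 1 of them had an unadjusted p under 0.05, between KO+AAV and WT.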

How the data were processed

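Per the labels' protocols, RNA of integrity number above 9 from snap-frozen myocardium went into stranded poly(A) libraries, read as 150 bp pairs; the series text asks for 40 M read pairs or more and names DESeq2 for the authors' own differential expression. The genome build was mm10, per the submitters' processing notes. What aligner, read counter, annotation and strand setting were used is not given in the sources used here. Per gene, the authors deposited normalised counts, a signal unit of fractional values at or above 0, in 1 table per age, each normalised on its own. Low values lay near multiples of a step per library, but 90.5% to 94.8% (6 months) and 77.2% to 94.3% (6 weeks) were whole within 0.1 of a step, under the 95% set for recovering reads. Count models were therefore not run, and no counting intervals are given; the steps put depth at about 9.63 to 14.2 M counted reads at 6 months and 6.06 to 9.2 M at 6 weeks.

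Values were tested as log2(value + 1) with limma 3.58.1 in R 4.3.3, two-sided, with a mean-variance trend, for genes at 10 or more in at least 3 (6 weeks) or 4 (6 months) libraries. The 3 groups at 6 months shared 1 model; effects at both ages were compared over their combined standard error with Welch-Satterthwaite degrees of freedom. The scripts were tested on simulated data, in which fewer genes were changed than the 2189 called between KO and WT at 6 months. At that age the adjustment was therefore stricter in the simulation, and its rates do not give those of the real data. A simulated log2 change of 0.49 between KO and WT was called in 1.52% of cases at 6 weeks and 6.06% at 6 months. A change of 1 was called in 37.3% and 73.1%. Known changes were missed at both ages, so a missed call does not show an unchanged level. The labels count each library as a separate mouse, and p-values measure the spread between these samples. Lengths, coordinates and overlaps came from a GENCODE annotation of GRCm38, and promoter windows from RefSeq. Tables were made with numpy 2.4.6 and pandas 2.3.3 under Python 3.11.15, figures with matplotlib 3.10.9.

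The members, lists and tests were chosen with earlier results of these data known. Members past a test in at least 1 comparison are given in full and the others by range; in each further list up to 4 genes of smallest p past the test are named, except 1 ligand that is not reported here. Alternatives were pseudocounts of 10 and 0.1, no filter, equal totals, no variance trend, only the groups compared, a replicate block, sex-linked expression as a covariate or restricted to Y-linked libraries, no KO 1 and KO 5, and each library left out. No column of values was left out.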

Additional observations from a re-analysis of the deposited data

Results flagged for a closer look

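For 38 members in the 3 groups of 4 or 5 hearts at 6 months, the highest or lowest heart was compared with the rest of its group (114 groups of values), and 7 stood farther out than Dixon's 95% limit; chance alone flags about 1 group in 20. KO+AAV 2 accounted for 2 of them, with Itga5 at 1574 beside 857.8 to 937.5 in the other KO+AAV hearts and Flna at 3902 beside 2240 to 2509. KO+AAV 3 held 2428 for Itga7 beside 2286 to 2307. In KO hearts, KO 2 held 494 for Itgav beside 362.5 to 399.4, and KO 5 held 208 for Itgam beside 81.6 to 110.7. In WT hearts, WT 2 held 232 for Itga3 beside 127.8 to 155.6, and WT 5 held 84.5 for Itgb4 beside 23.6 to 32.6. Leaving out KO+AAV 2 kept the Itga5 call between KO+AAV and KO.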

How the results depend on the processing

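For the members with an unadjusted p under 0.05 in a comparison, 1011 alternative values were computed in those comparisons; among these none changed sign, 878 kept their side of the threshold, 100 lost a call and 33 gained one. Itga9 kept both calls and Itgb1bp2 its vector call under all alternatives run. The count of members past the test for KO against WT at 6 months, 7 as reported, was 3 with sex-linked expression as a covariate, 2 in Y-linked libraries alone and 2 without KO 1 and KO 5; leaving out 1 library gave 2 to 10. For KO+AAV against KO, 8 as reported, it was 5 without the filter, 5 without the variance trend, 3 with the sex-linked covariate and 2 in Y-linked libraries alone, where 2 KO+AAV hearts remain; leaving out 1 library gave 3 to 11. For KO+AAV against WT, 0 as reported, equal totals gave 1 (Itgb3), and leaving out 1 library 0 to 2. For the difference between ages, 0 as reported, equal totals gave 1 (Itga7) and omitting KO 1 and KO 5 gave 1 (Lims2), and leaving out 1 library 0 to 1. At 6 weeks all 12 alternatives gave 0, leaving out 1 library included. The cause of these shifts was not tested.

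The replicate number of the labels did not pair the hearts at 6 months: 7 of 13 like-numbered pairs correlated above 0.1 after removal of group means (-0.391 to 0.253), and the like-numbered heart was the best match in 3 of 26 cases. With the replicate block, 6 members passed for KO against WT, without Itgb5, 8 for KO+AAV against KO, with Itgav, Parva and Vcl in place of Actn1, Itgb3 and Zyx, and 0 for KO+AAV against WT. No paired analysis was possible at 6 weeks because the columns carry no replicate numbers of the labels.

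No KO heart at 6 months carried Xist, so sex and genotype are partly confounded there. Counts behind the values are unknown, and differences of low members such as Itga11 and Itgb6 rest on few reads.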
